A study of Sus scrofa with 4 samples.

Results

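Claudins and their partners at the tight junction were followed through the reprogramming of pig fibroblasts. The 9 genes were CLDN1, CLDN3, CLDN4, CLDN6, CLDN7, OCLN, TJP1, TJP3 and CGN, out of 25880 genes in the count table. They were chosen by name for their place at the tight junction, and no measured value entered the choice. Of these, 8 were matched by Ensembl identifier and CGN by its position on the Sscrofa11.1 assembly. All 4 libraries came from 1 post-neonatal pig, whose ear skin fibroblasts (N01F) were sequenced at passage 1 (n = 1). Induced neural stem cell-like cells (iNSLCs, passage 1, n = 1) were the dome-shaped colonies that formed in a medium named NSM after transfection of the EP-B set of episomal vectors. This set carries human OCT4, SOX2, KLF4, L-MYC, LIN28, KLF2, NANOG, GLIS1 and KDM4D, a dominant-negative mouse p53 (mp53DD) and EGFP. Induced pluripotent stem cells (iPSCs, passage 3, n = 2 clones) arose from such colonies in an embryonic stem cell medium (ESM) with activin A, transforming growth factor β1 and the WNT inhibitor IWP2. Vectors, medium and cell state differed between fibroblasts and iNSLCs (both at passage 1), and medium, passage and cell state between either of them and the iPSCs. The iPSCs also differed from the fibroblasts in that they descend from cells given the vectors. The paper reports loss of the vectors from pig iPSCs at a later passage than that sequenced here. Whether vectors remained in the sequenced iPSCs is not stated. The parts of these in a difference cannot be told apart. Whether mouse feeder cells were present in the sequenced pig cultures is not stated.

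Tight junctions seal the gap between neighbouring epithelial cells near their apical side. Claudins, which span the membrane, form the strands of the seal and set which ions pass, and occludin (OCLN) joins them in the membrane. Below the membrane, the zonula occludens scaffolds (TJP1 is ZO-1 and TJP3 is ZO-3) and cingulin (CGN) link the strands to actin and myosin. Fibroblasts are mesenchymal cells without such a seal, whereas primed pluripotent cells grow as epithelial sheets, and a mesenchymal-to-epithelial transition is a known early step of reprogramming.

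Total counts lay between 21640374 (iPSC clone 1) and 62421521 (fibroblast), so that 3 counts, the limit that a count of 0 allows, corresponded to 0.0648 to 0.127 CPM (counts scaled for library size by the TMM method). Intervals and limits below cover counting error only. The p-values came from the edgeR quasi-likelihood F test, adjusted over all 15739 genes tested by the Benjamini-Hochberg method, and rest on the spread between the 2 iPSC clones. The fibroblast and iNSLC libraries were assumed to vary like the clones. The fibroblast and iPSC labels were checked against marker genes, and neural markers are given at the end. The 8 fibroblast markers (COL1A1, DCN and others) summed to 137700 CPM in fibroblasts, 52689 in iNSLCs and 870 and 892 in the iPSC clones, and the 5 pluripotency markers (POU5F1, NANOG and others) to 0.13, 247, 668 and 689 CPM. In iNSLCs the pluripotency sum was mostly LIN28A (202 CPM) and POU5F1 (40.5 CPM), whose human counterparts LIN28 and OCT4 were on the vectors. NANOG (0.209 CPM, 6 counts), whose human counterpart was also on the vectors, was low there. TDGF1 (1.12 CPM) and UTF1 (3.32 CPM) were low as well. Whether reads from the vectors entered these counts was not tested. In bulk RNA, a smaller share of cells of a type and less RNA per cell cannot be told apart.

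Of the 9 genes, 7 were highest in the iPSCs and 1, CLDN1, in the fibroblasts, while the few counts of CLDN7 gave no order. Between iPSCs and fibroblasts, 7 genes were called higher (CLDN3, CLDN4, CLDN6, OCLN, TJP1, TJP3 and CGN), 1 was called lower (CLDN1), and CLDN7 was not called. Across the 15739 tested genes, 29.6% passed upward and 28.2% downward (57.8% in either direction), a split of 4651 and 4440 genes that became 7264 and 2754 when libraries were scaled by total counts instead of TMM. The median log2 ratio was 5.98 over the 9 genes and 0.13 over all genes. Between iPSCs and iNSLCs, 6 genes were called higher and 1 lower, with CLDN4 and CLDN7 not called, against 13.1% higher and 14.2% lower over all genes (27.3% in either direction). The median there was 1.01, against 0.00 over all genes. The comparisons share the iPSC libraries and are not independent.

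**Figure D1:**
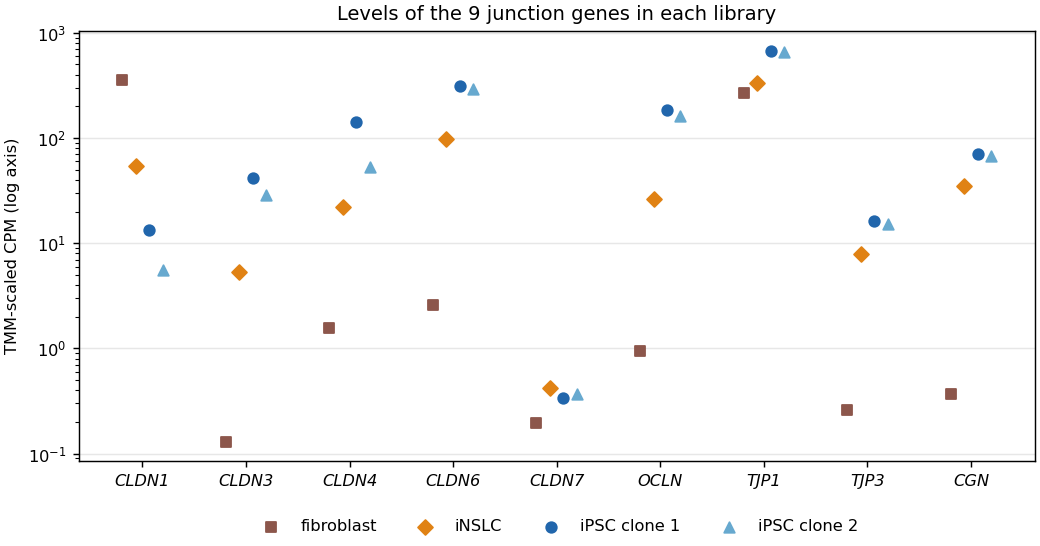
Level of each of the 9 genes in TMM-scaled CPM on a log axis. Each marker is 1 library (fibroblast, iNSLC, iPSC clone 1, iPSC clone 2). CLDN1 falls from 354.6 CPM in the fibroblast to 13.4 and 5.59 CPM in the clones, the other genes except CLDN7 rise, and CLDN7 stays under 1 CPM in all 4 libraries.

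CLDN6, a claudin of embryonic epithelia and of pluripotent cells, was the claudin with the highest level in the iPSCs. Its 746-base model lies on chromosome 3 (positions 39171390 to 39172135, plus strand, ENSSSCG00000023743) and is a single exon. It was at 2.61 CPM (121 counts) in fibroblasts, 97.3 CPM in iNSLCs, and 311 and 291 CPM in iPSC clones 1 and 2. The clones lay close together and far above both other libraries. The iPSC mean of 301 ± 13.9 CPM (SD, n = 2) was 115-fold that of fibroblasts (log2 fold change 6.85, SE 0.17, adjusted p = 0.000358). It was also 3.09-fold that of iNSLCs (log2 fold change 1.63, SE 0.12, adjusted p = 0.00513). The RefSeq span of CLDN6 on the same assembly is 4126 bases, so reads of exons outside the counted model would not have entered these counts.

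CLDN3 and CLDN4, classical claudins of simple epithelia, are neighbours on chromosome 3, separated by 19507 bases and transcribed from opposite strands. CLDN3 (11018932 to 11020198, minus strand, ENSSSCG00000035928) was at 0.13 CPM in fibroblasts (6 counts), 5.37 CPM in iNSLCs, and 41.9 and 28.8 CPM in the clones. CLDN4 (11039706 to 11053923, plus strand, ENSSSCG00000007718) was at 1.55 CPM in fibroblasts, 22.3 CPM in iNSLCs, and 143 and 52.6 CPM in the clones. Both genes thus had the same order of groups, with clone 1 above clone 2. For CLDN3 the iPSC mean (35.4 ± 9.22 CPM, SD, n = 2) was 273-fold that of fibroblasts (adjusted p = 0.00108) and 6.58-fold that of iNSLCs (adjusted p = 0.0132). For CLDN4 the iPSC mean (97.9 ± 64.1 CPM, SD, n = 2) was 63.0-fold that of fibroblasts (adjusted p = 0.00751), with 92.2-fold in clone 1 alone and 33.8-fold in clone 2 alone. Against iNSLCs it was 4.39-fold, which did not pass the test (log2 fold change 2.13, SE 0.69, adjusted p = 0.0899). The clones differed 2.72-fold, and both lay above the iNSLC library. Of the 1749 exonic bases of CLDN4, 720 (41.2%) also belong to METTL27 on the other strand, which was at 0.507 to 1.81 CPM in all 4 libraries. How the counting treated reads of shared exons is not stated.

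CLDN1, the claudin that the epidermis needs for its barrier, ran the other way. It lies on chromosome 13 (127710737 to 127730765, minus strand, ENSSSCG00000040904). Fibroblasts held 354.6 CPM (16422 counts), iNSLCs 54.3 CPM, and the clones 13.4 and 5.59 CPM. The 3 groups did not overlap, and each was lower than the one before it. The iPSC level (9.51 ± 5.54 CPM, SD, n = 2) was 37.3-fold lower than that of fibroblasts (log2 fold change -5.27, SE 0.50, adjusted p = 0.00215), 26.4-fold in clone 1 alone and 63.4-fold in clone 2 alone. It was 5.71-fold lower than that of iNSLCs (adjusted p = 0.0291), but this call was lost with DESeq2 (adjusted p = 0.0567) and without the filter on low counts (adjusted p = 0.0655). For clone 1 alone the iNSLC level was 4.04-fold and for clone 2 alone 9.71-fold higher than the iPSC level. Keratinocyte markers, of which 4 of 6 were found (KRT1, KRT10, TP63 and DSG3, while KRT5 and KRT14 were not found by name), summed to 7.30 CPM in fibroblasts, 72.3 in iNSLCs, 10.8 in clone 1 and 6.16 in clone 2. The keratinocyte sum was lower in fibroblasts than in iNSLCs, where KRT1 alone was at 41.0 CPM, while CLDN1 was higher in fibroblasts. The part of keratinocytes in the CLDN1 level was not tested. CLDN1 moved with the sum of the fibroblast markers given above, whose part in its level was not tested.

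CLDN7, a claudin of many adult epithelia, was barely detected. It lies on chromosome 12 (52611168 to 52628376, minus strand, ENSSSCG00000017934) and had 9 counts in fibroblasts, 12 in iNSLCs, and 8 and 17 in the clones. These counts correspond to 0.194, 0.419, 0.338 and 0.372 CPM. The iPSC mean was 1.82-fold that of fibroblasts (log2 fold change 0.88, SE 0.83, adjusted p = 0.405) and 0.847 times that of iNSLCs (adjusted p = 0.850), so no difference was detectable at this depth. The model shares 2009 of its 2896 exonic bases (69.4%) with ELP5 on the opposite strand, a gene at 13.4 to 19.1 CPM in the 4 libraries. The part of this overlap in the low counts of CLDN7 was not tested.

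OCLN, the tetraspan partner of the claudins, lies on chromosome 16 (47600180 to 47652445, plus strand, ENSSSCG00000021514). It was at 0.950 CPM in fibroblasts (44 counts), 26.1 CPM in iNSLCs, and 186 and 163 CPM in the clones. The clones lay close together and well above the iNSLC library. The iPSC mean of 175 ± 16.3 CPM (SD, n = 2) was 184-fold that of fibroblasts (log2 fold change 7.52, SE 0.22, adjusted p = 0.000396). Over iNSLCs it was 6.69-fold higher (log2 fold change 2.74, SE 0.16, adjusted p = 0.00372). This fold and that of CLDN3 (6.58) were the highest of the 9 genes, in an order that differed between the clones.

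TJP1, the ZO-1 scaffold, was the only one of the 9 genes with a similar level in fibroblasts and iNSLCs and a high count in every library. ZO-1 also sits at the cadherin contacts of cells that lack tight junctions. The gene lies on chromosome 1 (144930347 to 145196016, minus strand, ENSSSCG00000004854). Its levels were 268 CPM in fibroblasts, 330 in iNSLCs, and 674 and 653 in the clones. The clones again lay together, above both other libraries. The iPSC mean (664 ± 15.5 CPM, SD, n = 2) was 2.48-fold that of fibroblasts (log2 fold change 1.31, SE 0.12, adjusted p = 0.00186) and 2.01-fold that of iNSLCs (log2 fold change 1.01, SE 0.11, adjusted p = 0.0107).

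TJP3 and CGN, which belong to the epithelial junction, rose from a few counts. TJP3 (ZO-3, chromosome 2, 74936613 to 74971531, minus strand, ENSSSCG00000013491) was at 0.259 CPM in fibroblasts (12 counts), 7.89 CPM in iNSLCs, and 16.1 and 15.2 CPM in the clones. CGN (cingulin, chromosome 4, 97704809 to 97730106, minus strand, ENSSSCG00000006621) was at 0.367 CPM in fibroblasts (17 counts), 35 CPM in iNSLCs, and 70.1 and 66.9 CPM in the clones. In both genes the fibroblast library stood far below the other 3. The iPSC mean of TJP3 was 60.4-fold and that of CGN 187-fold the fibroblast level (adjusted p = 0.000852 and 0.000396). Over iNSLCs the folds were 1.99 for TJP3 (log2 fold change 0.99, SE 0.22, adjusted p = 0.0420) and 1.96 for CGN (log2 fold change 0.97, SE 0.13, adjusted p = 0.0158). The TJP3 call over iNSLCs was lost with DESeq2 (adjusted p = 0.107) and without the filter on low counts (adjusted p = 0.0595). TJP3 shares 16.6% of its exonic bases with APBA3, a gene at 4.01 to 4.85 CPM in all libraries.

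The first step, from fibroblasts to iNSLCs, was compared between single libraries, with no test. Of the 9 genes, 4 were at least 4-fold higher in the iNSLC library and at 10 CPM or more there (CLDN4, CLDN6, OCLN and CGN), and CLDN1 was that much lower. Over all genes the same rule gave 5.89% higher and 5.69% lower. CGN had the highest ratio, 95.4 (95% interval 59.3 to 164), followed by CLDN3 with 41.5 (18.6 to 115), CLDN6 with 37.2 (31.0 to 45.0) and TJP3 with 30.4 (17.1 to 59.8). CLDN3 and TJP3 stayed under 10 CPM in iNSLCs. The interval of CGN overlapped those of CLDN3 and TJP3 and lay above those of CLDN6 and OCLN (27.5, 20.3 to 38.1). The intervals of CLDN3, CLDN6, TJP3 and OCLN overlapped one another. The counts thus fix neither the order among these genes nor that of CGN against CLDN3 and TJP3. CLDN4 had a lower ratio, 14.4 (11.2 to 18.6), with an interval that overlapped that of TJP3. TJP1 had the lowest ratio above 1 with 1.23 (1.2 to 1.27). CLDN1 was 6.53-fold lower (6.20 to 6.88), and the ratio of CLDN7 was 2.15 (0.833 to 5.79). The genes reached unequal shares of their whole change by the iNSLC stage. On the log2 scale this share was 87.2% for CGN, 83.3% for TJP3, 76.2% for CLDN6, 66.4% for CLDN3, 64.3% for CLDN4, 63.6% for OCLN and 51.9% for CLDN1. For TJP1 it was 23.1%, so that most of its change lay between iNSLCs and iPSCs. For CLDN1 both steps were near equal, and with clone 2 alone the second (9.71-fold lower) was the larger. The shares also depend on the scaling. Total-count scaling raised every log2 ratio of the first step by 0.58, beside TMM ratios of 0.30 for TJP1 and -2.71 for CLDN1.

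**Figure D2:**
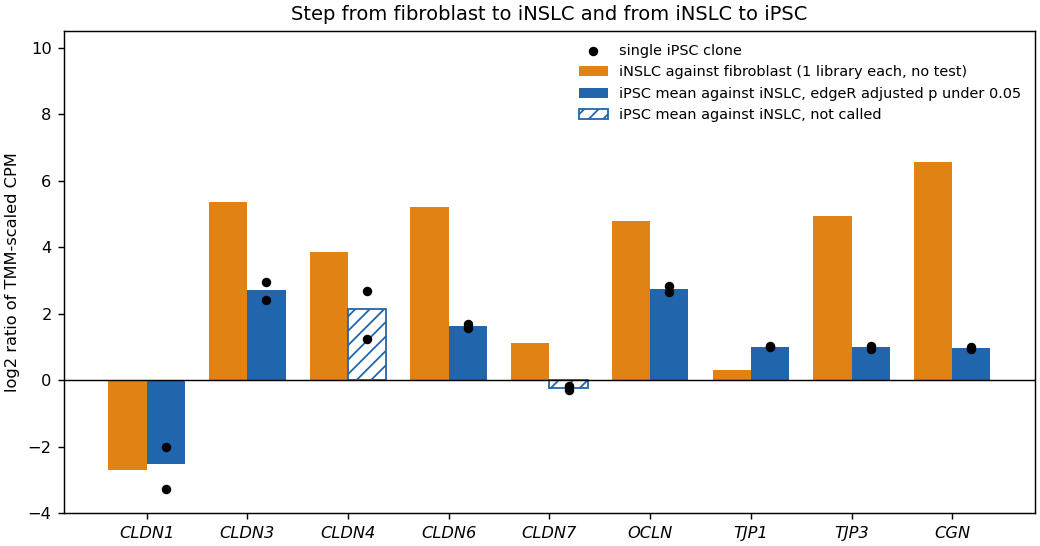
Log2 ratio of TMM-scaled CPM for the step from fibroblast to iNSLC (orange, 1 library each, no test) and from iNSLC to the iPSC mean (blue, with hatched bars where edgeR made no call and a black point for each clone). The first bar is the longer for every gene but TJP1, though only narrowly for CLDN1 (-2.71 and -2.51). The clones of CLDN1 and CLDN4 lie well apart.

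Genes that are partners were set against each other within each library, as a ratio of levels per length (CPM per kilobase of exon). These pairs were picked after their values were seen. The ratio of TJP1 to TJP3 was 647 in fibroblasts (95% interval 370 to 1252) but 26.2 (23.0 to 30.0) in iNSLCs, 26.3 (23.7 to 29.1) in clone 1 and 26.8 (24.9 to 29.0) in clone 2. The ratio of TJP1 to CGN was 481 in fibroblasts (300 to 826), 6.22 (5.83 to 6.65) in iNSLCs, and 6.35 (6.04 to 6.68) and 6.44 (6.20 to 6.69) in the clones. The intervals of the iNSLC and iPSC libraries overlapped, which leaves the 3 plaque genes in like proportion while each of them was called higher in iPSCs than in iNSLCs. For OCLN and MARVELD2 (tricellulin, which seals the corners where cells meet) the iNSLC library stood apart. That ratio was 2.68 (1.42 to 5.43) in fibroblasts, 0.795 (0.717 to 0.881) in iNSLCs, and 2.86 (2.69 to 3.05) and 2.46 (2.35 to 2.58) in the clones. MARVELD2 had 13 counts in fibroblasts. It shares 689 of its 4098 exonic bases (16.8%) with RAD17 on the same strand, a gene at 26.1 to 39.8 CPM. The part of this overlap in the ratio was not tested.

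Per length, CLDN6 led the 9 genes in iPSC clones 1 and 2 with 416 and 390 CPM per kilobase, followed by TJP1 with 84.7 and 81.9. CLDN4 (81.9 and 30.1), CLDN3 (40.8 and 28.1) and OCLN (36.0 and 31.5) came next, in an order that differed between the clones. Below them were CGN (13.3 and 12.7), TJP3 (3.22 and 3.05), CLDN1 (2.44 and 1.02) and CLDN7 (0.117 and 0.128). In fibroblasts the order began with CLDN1 at 64.5 CPM per kilobase and TJP1 at 33.6, followed at a distance by CLDN6 at 3.50. In iNSLCs it began with CLDN6 at 130 and TJP1 at 41.4.

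The make-up of the claudin transcripts therefore turned over. The levels per length of the 20 claudins found summed to 80.9 CPM per kilobase in fibroblasts, 218 in iNSLCs, and 566 and 475 in the iPSC clones. CLDN1 held 79.8% of this sum in fibroblasts, 4.53% in iNSLCs, and 0.432% and 0.214% in the clones. CLDN6 held 4.33%, 59.7%, 73.5% and 82.1%, respectively. In fibroblasts CLDN1 stood 18.4-fold above CLDN6 (15.4 to 22.2), whereas CLDN6 stood 13.2-fold above CLDN1 in iNSLCs (12.4 to 14.0) and 170-fold and 383-fold above it in the clones. CLDN4 took 1.10%, 5.85%, 14.5% and 6.33% of the sum, and CLDN3 0.156%, 2.40%, 7.20% and 5.91%. Because CLDN6 is counted over a single short exon, its share depends on that model being the whole counted length. The sum is not a full census of claudins, since CLDN5 was not found by name. CLDN15 had 0 counts in all libraries and shares 96.95% of its exonic bases with FIS1 on the same strand.

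**Figure D3:**
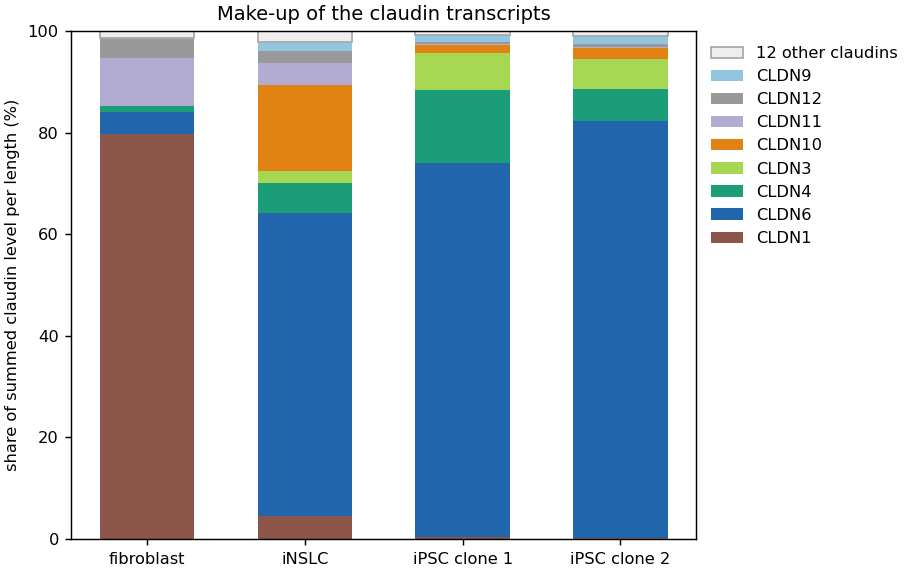
Share of the summed claudin level per length (in percent) held by each claudin in each of the 4 libraries. CLDN1 (brown) holds 79.8% in the fibroblast, CLDN6 (blue) 59.7% to 82.1% in the other libraries, and CLDN10 (orange) 17.0% in the iNSLC library.

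Among the other claudins, of which 15 of 16 listed were found and 10 tested, 3 passed upward and 1 downward between fibroblasts and iPSCs. Over all genes 29.6% passed upward and 28.2% downward, so these counts lie near or below the background. Against iNSLCs 3 of the 10 were called lower and the other 7 were not called. In that comparison 14.2% of all genes were called lower and 13.1% higher. CLDN10, which forms ion pores in kidney and gland, had 0 counts in fibroblasts, 61.6 CPM in iNSLCs, and 14.9 and 16.3 CPM in the clones. It thus peaked at the iNSLC stage, where it took 17.0% of the claudin sum. It was at least 241-fold higher in iPSCs than in fibroblasts (adjusted p = 0.000533) and 3.95-fold lower in iPSCs than in iNSLCs (adjusted p = 0.00569). CLDN9, whose model lies 1165 bases from CLDN6 on the opposite strand, had 0 counts in fibroblasts and stood at 2.37 CPM in iNSLCs and 5.28 and 5.18 CPM in the clones (at least 80.7-fold higher in iPSCs than in fibroblasts, adjusted p = 0.00185). CLDN8 also went from 0 counts to 2.58 CPM in iNSLCs and to 1.90 and 1.75 CPM in the clones (at least 28.2-fold higher in iPSCs than in fibroblasts, adjusted p = 0.00543). CLDN11, the claudin of myelin and of Sertoli cells, was at 15.7 CPM in fibroblasts, 18.8 in iNSLCs, and 2.53 and 1.92 in the clones. It was 7.04-fold lower in iPSCs than in fibroblasts (adjusted p = 0.00190) and 8.46-fold lower than in iNSLCs (adjusted p = 0.00633). CLDN12 was at 22.3, 37.9, 16.2 and 22.3 CPM, respectively. It was 1.97-fold lower in iPSCs than in iNSLCs (adjusted p = 0.0492, lost without the filter on low counts, 0.0790) and not called against fibroblasts (adjusted p = 0.503), where its direction reversed under total-count scaling. CLDN2, CLDN16, CLDN18, CLDN19, CLDN20, CLDN22 and CLDN23 stayed at or under 1.09 CPM in every library. The 5 of them that were tested were not called, and their adjusted p against fibroblasts ranged from 0.0524 (CLDN18) to 0.763 (CLDN20). With total-count scaling CLDN18, CLDN19 and CLDN23 were called higher in iPSCs than in fibroblasts (adjusted p = 0.0307, 0.0462 and 0.0460), CLDN18 also with the older quasi-likelihood method of edgeR (adjusted p = 0.0445).

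The other membrane proteins of the junction included 10 tested genes, of which 8 rose and 2 fell from fibroblasts to iPSCs, with a median log2 ratio of 3.90. The all-gene shares were 29.6% and 28.2%. CXADR, the coxsackievirus and adenovirus receptor, was at 1.38 CPM in fibroblasts and at 382, 325 and 326 CPM in iNSLCs and the clones. It had thus reached its iPSC level at the iNSLC stage (236-fold over fibroblasts, adjusted p = 0.000358, and 0.853 times the iNSLC level, adjusted p = 0.163). MARVELD2 was 185-fold, MARVELD3 169-fold and LSR, which recruits tricellulin, 107-fold higher in iPSCs than in fibroblasts (adjusted p = 0.000402, 0.000912 and 0.000397). Each also rose from iNSLCs to iPSCs, by 2.0-fold, 2.29-fold and 2.65-fold (adjusted p = 0.0167, 0.0353 and 0.00849), although the MARVELD3 call was lost without the filter (0.0560) and with DESeq2 (0.0579). JAM2, an adhesion protein also found at endothelial contacts, was 9.47-fold lower in iPSCs than in fibroblasts (adjusted p = 0.00184). ILDR2 was 8.89-fold higher than in fibroblasts (adjusted p = 0.00162) but 2.06-fold lower than in iNSLCs (adjusted p = 0.0307, or 0.0531 without the filter). In all, 4 of the 10 were called higher and 1 lower against iNSLCs, where the all-gene shares were 13.1% and 14.2%.

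Plaque and polarity proteins were more divided. Of 21 tested, 12 rose and 5 fell from fibroblasts to iPSCs (median log2 ratio 0.81), while 8 were called higher and 2 lower against iNSLCs. The share that fell was thus near or below the background in both comparisons (28.2% and 14.2% of all genes lower), and the share that rose above it (29.6% and 13.1% higher). PRKCZ, an atypical protein kinase C, was at 0.0432 CPM in fibroblasts (2 counts) and at 17.4, 14.8 and 17.4 CPM in the other libraries (adjusted p = 0.000785 for iPSCs against fibroblasts). LLGL2, a basolateral polarity protein, was 82.6-fold higher in iPSCs than in fibroblasts and 4.67-fold higher than in iNSLCs (adjusted p = 0.000402 and 0.00471). PARD6B was 24.0-fold, CGNL1 (paracingulin) 8.0-fold, PATJ 6.76-fold and MAGI2 3.79-fold higher in iPSCs than in fibroblasts, each with an adjusted p of 0.00327 or less. All 4 were also called higher than in iNSLCs, CGNL1 not without the filter (adjusted p = 0.0574). CRB3, an apical polarity protein, had 0 counts in all libraries, and all of its 366 exonic bases also belong to DENND1C.

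Adherens junction and desmosome genes went with the tight junction genes. Of 15 tested, 13 rose from fibroblasts to iPSCs and JUP and NECTIN4 were not called, whereas 8 were called higher and 2 lower against iNSLCs. Over all genes 29.6% and 13.1% were called higher in these comparisons, and 28.2% and 14.2% lower. CDH1 (E-cadherin) rose from 3.48 CPM in fibroblasts to 378 CPM in iNSLCs and 801 and 616 CPM in the clones (204-fold over fibroblasts, adjusted p = 0.000473). EPCAM was 372-fold, DSG2 268-fold, PKP2 40.2-fold, DSP 18-fold and CDH3 17.9-fold higher in iPSCs than in fibroblasts, each with an adjusted p of 0.000859 or less. Simple epithelium markers, of which 4 of 5 were found (KRT8, KRT18, EPCAM and CDH1, while KRT19 was not found by name), summed to 9.33 CPM in fibroblasts, 1533 in iNSLCs, and 7785 and 7207 in the clones. Apart from TJP1, the junction genes that rose moved with this sum. TJP1 was similar in fibroblasts and iNSLCs (268 and 330 CPM) and rose mainly from iNSLCs to iPSCs. The part of a general epithelial shift in the levels of these genes was not tested.

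**Figure D4:**
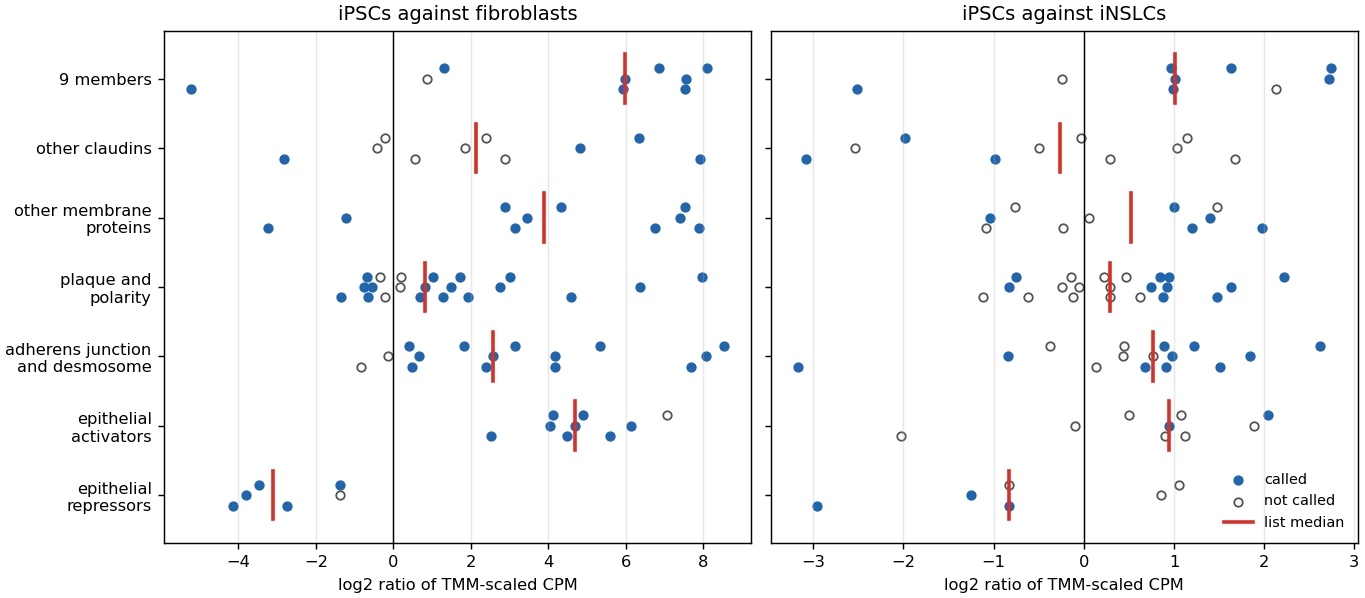
Log2 ratio of each tested gene of 7 lists, for iPSCs against fibroblasts (left) and iPSCs against iNSLCs (right). Filled points were called by edgeR, open points were not, and red lines are list medians. Against fibroblasts the median of the 9 genes is 5.98 and that of the epithelial repressors -3.09.

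Transcription and splicing factors known to act on epithelial genes also differed. Of 9 activators, 8 rose from fibroblasts to iPSCs, and of 6 repressors 5 fell, beside 29.6% and 28.2% of all genes. Against iNSLCs, 2 of the 9 activators were called higher and 3 of the 6 repressors lower, beside 13.1% and 14.2% of all genes. ZEB1, which represses E-cadherin, was at 98.1 CPM in fibroblasts, 54.5 in iNSLCs, and 7.09 and 6.95 in the clones. It was 14.0-fold lower in iPSCs than in fibroblasts and 7.76-fold lower than in iNSLCs (adjusted p = 0.000403 and 0.00269), so that most of its difference lay at the second step. SNAI2 had most of its difference at the first step, with 129 CPM in fibroblasts, 12.9 in iNSLCs, and 7.60 and 7.02 in the clones (17.7-fold lower in iPSCs than in fibroblasts, adjusted p = 0.000402). TWIST1 was 11-fold, SNAI1 6.66-fold and ZEB2 2.59-fold lower in iPSCs than in fibroblasts (adjusted p = 0.00132, 0.00110 and 0.0369). The ZEB2 call was lost with total-count scaling (0.101), without the filter (0.0711) and with DESeq2 (0.119). ESRP1 was 70.7-fold, ELF3 47.9-fold, GRHL3 29.9-fold, ESRP2 26.0-fold and KLF5 5.77-fold higher (adjusted p = 0.000544, 0.00571, 0.0443, 0.00389 and 0.00360). Without the filter GRHL3 was not called (adjusted p = 0.0887). Its fold was 46.3 in clone 1 alone and 13.5 in clone 2 alone. GRHL2, an activator of claudin genes, was at 0.173 CPM in fibroblasts, 16.4 in iNSLCs, and 41.4 and 5.09 in the clones, and did not pass the test (adjusted p = 0.0554). It passed with total-count scaling, with a filter at 1 CPM, with DESeq2 and in the fit of 2 groups. TWIST2 was at 61.6, 11.3, 39.9 and 7.23 CPM and was not called (adjusted p = 0.246).

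The iPSC clones lay close together for most of the 9 genes. OCLN, CLDN6, TJP1, TJP3 and CGN differed by less than 1.2 times, and for CLDN7 the interval was too wide to tell (1.10, 0.450 to 2.94). CLDN4 and CLDN1 were more than 2-fold lower in clone 2, whereas over all genes tested 0.743% were at least 2-fold lower and 0.14% at least 2-fold higher in clone 2, at 10 CPM or more in the higher clone. CLDN4 was 2.72-fold lower (95% interval 2.58 to 2.87) and CLDN1 2.40-fold lower (2.03 to 2.84). CLDN3 was at 0.689 times its clone 1 level (0.634 to 0.749). The remaining claudin with enough counts, CLDN6, was at 0.937 times (0.910 to 0.964), and OCLN was at 0.876 times (0.844 to 0.910). For TJP1, TJP3 and CGN the ratios were 0.968, 0.947 and 0.954. GRHL2 (41.4 and 5.09 CPM), GRHL3 (6.0 and 1.75) and TWIST2 (39.9 and 7.23) were also higher in clone 1. So were the other epithelial activators listed. The median log2 ratio, clone 2 against clone 1, was -0.80 over the 9 activators and -0.35 over the 6 repressors, beside 0.03 over all genes tested. The part of these factors in the claudin levels was not tested. These are single libraries, so that clone and library preparation cannot be told apart.

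**Figure D5:**
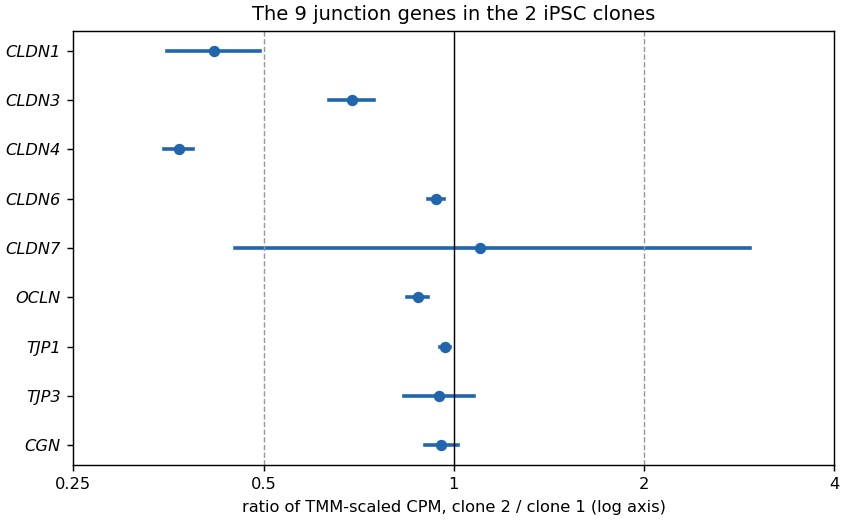
Ratio of TMM-scaled CPM in iPSC clone 2 to that in clone 1 for each of the 9 genes, on a log axis. Points are ratios, bars are 95% exact intervals for counting error, and dashed lines mark 2-fold. CLDN1 and CLDN4 lie beyond the lower 2-fold line, and the wide bar of CLDN7 rests on 8 and 17 counts.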

How the data were processed

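The authors deposited whole-number read counts per gene, not normalized, for 4 libraries of pig cells. The submitters' processing notes name Trim Galore 0.4.0, STAR 2.5.3a, featureCounts 1.5.2 and the Sscrofa11.1 assembly. The Ensembl release, the strand setting and the treatment of reads in shared exons are not given in the sources used here. Reads of a gene and of a neighbour overlapping it on the other strand thus could not be told apart. Symbols were assigned by Ensembl identifier (14857 genes) or by position on the RefSeq annotation of Sscrofa11.1 (1950 genes, at least 80% of the shorter span and 15% of the joint span), and 9073 of 25880 genes had none. Of 133 listed genes, 128 were found. Lengths were the summed exons of the count table.

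Counts were filtered with filterByExpr, scaled by TMM (factors 0.742 for the fibroblast, 1.11 for the iNSLC, and 1.09 and 1.11 for the iPSC libraries) and tested with the quasi-likelihood F test of edgeR 4.0.16 (limma 3.58.1, R 4.3.3), two-sided, at an adjusted p under 0.05. All 4 libraries entered 1 fit with 3 groups, which left 1 residual degree of freedom, from the clones (common biological coefficient of variation 0.198). Nothing in the labels says that the clones were separate cultures of more than 1 animal, so p-values measure the spread between these clones. For single libraries, ratios have 95% exact conditional binomial intervals and no test. In folds, a library below 3 counts was set to 3 (a floor applied per library), and a fold against 0 counts is a lower bound.

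The text names the 9 genes, other claudins with 3 counts or more, and up to 6 genes at 10 CPM or more of each other junction or regulator list, by size of log2 ratio. Marker genes, gene ratios within libraries, overlapping genes and counts of 0 were named beside these. Genes with a profile near that of the 9 were also named, of which 1 is not reported here. The genes, lists and tests were chosen with earlier results of these data known. Alternatives were RLE and total-count scaling, no filter, a filter at 1 CPM in 2 libraries, DESeq2 1.42.0, the 2 compared groups alone, each clone left out, a 2-fold size rule, and edgeR's older quasi-likelihood method, which was added after seeing the data.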

Additional observations from a re-analysis of the deposited data

How the results depend on the processing

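No called direction among the 9 genes turned under any scaling, filter or tool tried. Between iPSCs and fibroblasts the counts of 7 higher and 1 lower were the same under all of them. Total-count scaling raised every log2 ratio against fibroblasts by 0.57. It moved the calls over all genes from 4651 higher and 4440 lower to 7264 and 2754, and the median log2 ratio of the 9 genes from 5.98 to 6.54, and it reversed CLDN12 (0.37) and CLDN20 (0.32), neither of which was called. Without each clone in turn that median ranged from 5.88 (without clone 1) to 6.53 (without clone 2). Between iPSCs and iNSLCs, the 1 gene called lower (CLDN1) became 0 with no filter (edgeR) and 0 with DESeq2, where 1 was lower at an unadjusted p under 0.05 in each, and the 6 genes called higher became 5 in each, without TJP3. With no filter, 1340 instead of 2069 genes were called higher over all genes. No paired analysis was possible because fibroblasts and iNSLCs had 1 library each and all libraries came from 1 pig. Genes with few counts, such as CLDN7, were limited by depth. With each clone left out no residual degree of freedom remained, so those values carry no test.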

Other observations

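Beyond the junction genes, the profile over the 4 libraries nearest to the mean profile of the 9 genes was sought among 10253 genes with a symbol and at 10 CPM or more in any library (Euclidean distance of centred log2(CPM + 1)). The median distance was 2.79. The nearest were CRHR1, a receptor for corticotropin-releasing hormone (distance 0.153), and NHERF1, a scaffold of the apical membrane (0.161), and others near it were SLC52A3, ATP2C2, PEAR1, ANKLE1, TMC7, UPK1B and RASGRP1 (0.317). NHERF1 was at 3.95 CPM in fibroblasts, 19.3 in iNSLCs, and 44.4 and 38 in the iPSC clones. Among the 9 genes, TJP3 lay nearest to their mean profile (0.550) and CLDN1 farthest (6.88). These distances rest on 4 libraries and were not tested.

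The remaining cell type markers were summed as for the others. Neural stem and neuroblast markers summed to 58.1 CPM in fibroblasts, 740 in iNSLCs, and 762 and 865 in the clones, carried by NES, SOX2 and MSI1. This sum did not set the iNSLC library apart from the clones. Against iNSLCs, SOX2 was called higher in iPSCs and MSI1, SOX1 and DCX lower (median log2 ratio of the 6 markers -1.21). DCX was at 5.38 CPM in fibroblasts, 54.6 in iNSLCs, and 1.44 and 1.68 in the clones, and PAX6 at 21.5, 14.6, 2.32 and 6.71 CPM. Endothelial markers (4 of 5 found) summed to 19.5, 49.7, 142 and 190 CPM, mostly KDR in the clones (124 and 163 CPM), while PECAM1 was called lower in iPSCs (19.5, 21.5, 2.03 and 5.20 CPM). Trophoblast markers summed to 42.2, 194, 64.1 and 59.4 CPM, although HAND1 was called higher in iPSCs than in either other group (0.345, 4.08, 30.4 and 26.4 CPM). Endoderm markers summed to 8.05, 9.56, 157 and 174, and blood markers to 15.9, 4.64, 2.66 and 3.32, in the same order. All 4 endoderm markers (SOX17, FOXA2, GATA4 and GATA6) were called higher in iPSCs than in either other group.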
